A study of Mus musculus with 12 samples.

Results

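The renal vesicle induction genes are a set of 10 genes, Lhx1, Pax8, Irx1, Irx3, Fgf8, Jag1, Dll1, Lfng, Hes5 and Cxcr4. They were chosen by symbol: a probe set was taken where the platform's probe-to-gene table gives it a member's name alone. All 10 were found, on 14 probe sets of 22690, among 12393 measured genes. The arrays came from cultured fetal mouse kidneys, 6 samples labelled beta-catenin activated, whose source is described as kidney with tumors, and 6 labelled wild type, whose source is described as normal. All are of the C57BL/6 strain, and their mothers all received tamoxifen at 10.5 dpc (days post coitum), at 2 mg for 40 g of body weight. Kidneys were taken at 10.5 dpc and cultured for 3 to 4 days. Any Cre line, the promoter that drives it and the beta-catenin allele are not given in the sources used here, so the cells that carry the change are not known from the labels. Nor do the labels say that samples came from separate animals or cultures, so p-values measure the spread between these samples, which may be technical.

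The renal vesicle is the first epithelial structure of the nephron. It forms when cells of the cap mesenchyme around the ureteric bud, the nephron progenitors, receive a Wnt signal that is carried to the nucleus by beta-catenin and become epithelial. Fgf8 and Wnt4, signals of the forming vesicle, and the transcription factors Lhx1 and Pax8 act at this step, and Notch signalling then takes part in dividing the vesicle into proximal and distal parts.

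The sample titles carry numbers that fall in 2 runs of close values, called the higher and the lower run. Each holds 3 activated and 3 wildtype arrays, and the labels do not say what a run is. Array values are log2(intensity + 16) after quantile normalisation, so that differences of dim genes are understated, and a difference is activated minus wildtype with its moderated standard error (SE) from limma. The highest of 27 bacterial control probe sets read 5.45 on this scale and marks the background. Kidney markers were present, with means over all arrays of 9.51 for Six2 of the nephron progenitors, 9.41 for Wt1, 9.82 for Foxd1 of the stroma and 11.17 for Calb1 of the ureteric bud. Ret (4.59) and Wnt9b (5.05), which also mark the bud, lay under the background. Ctnnb1, the gene of beta-catenin, differed by -0.05 (adjusted p = 0.950). Since the change named by the labels is in the protein's activity, the level of this transcript checks nothing about them. The array activated 2 stood apart in its log2 ratio between 5' and 3' probe sets of control transcripts, at -0.26, where the other 11 arrays lay between -2.43 and -1.06.

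The proximal promoters shown here are those of Irx3, the member with the largest difference between genotypes, of Lhx1, the member that differed between the runs, and of Lfng and Hes5 of the Notch pathway. Each line gives the 250 bases before the gene's start, from RefSeq on GRCm38.p6, 5′ to 3′ on the gene's strand. Capitals mark the letters TGGGAA or, on the other strand, TTCCCA, the core bound by Rbpj, the DNA-binding partner of Notch.
Irx3, chr8:91801655-91801904, minus strand: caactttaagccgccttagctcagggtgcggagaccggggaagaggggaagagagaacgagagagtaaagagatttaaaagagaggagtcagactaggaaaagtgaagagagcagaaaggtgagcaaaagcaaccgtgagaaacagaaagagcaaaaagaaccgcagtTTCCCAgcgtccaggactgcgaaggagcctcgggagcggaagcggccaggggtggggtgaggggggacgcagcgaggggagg
Lhx1, chr11:84525535-84525784, minus strand: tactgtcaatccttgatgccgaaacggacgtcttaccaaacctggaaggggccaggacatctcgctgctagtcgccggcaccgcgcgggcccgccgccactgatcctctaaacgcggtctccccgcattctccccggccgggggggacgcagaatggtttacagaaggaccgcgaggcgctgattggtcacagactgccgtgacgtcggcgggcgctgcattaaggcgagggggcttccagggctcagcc
Lfng, chr5:140607091-140607340, plus strand: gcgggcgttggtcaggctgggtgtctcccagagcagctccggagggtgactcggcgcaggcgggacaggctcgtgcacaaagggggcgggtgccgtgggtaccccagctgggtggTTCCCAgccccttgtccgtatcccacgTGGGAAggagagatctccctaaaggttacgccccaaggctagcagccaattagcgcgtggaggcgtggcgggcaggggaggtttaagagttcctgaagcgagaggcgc
Hes5, chr4:154960673-154960922, plus strand: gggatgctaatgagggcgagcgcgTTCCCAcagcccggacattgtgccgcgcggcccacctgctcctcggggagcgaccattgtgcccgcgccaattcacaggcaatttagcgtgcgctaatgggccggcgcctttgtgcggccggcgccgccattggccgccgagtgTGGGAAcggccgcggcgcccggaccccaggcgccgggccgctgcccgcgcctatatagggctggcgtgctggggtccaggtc

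Promoters of 8 of the 10 members were in the RefSeq table, without Fgf8 and Irx1. In these windows the Rbpj letters stood in 3 members: Hes5 had 2 copies, on opposite strands, starting 226 and 82 bases before the start, Lfng had 2 copies at 135 and 108, and Irx3 had 1 at 82. Of 32851 such windows in the mouse table, 21.6% held these letters on either strand. The letters CTTTGA or TCAAAG, the core bound by the Tcf and Lef partners of beta-catenin, stood in 0 of the 8 members, against 13.8% of all windows. A match of letters is no binding site, and their absence here says only that they are not in this window.

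None of the 10 members passed the test between activated and wildtype kidneys. Over all 12 arrays 0 of 10 passed limma's adjusted p of 0.05 and 1 had an unadjusted p under 0.05, with 3 of all 12393 genes passing (0.0242%) and 6.15% at the unadjusted level. Of the members 5 had a positive difference, and their median difference was -0.05, beside -0.01 and 46.6% positive for all genes. In the higher run 0 of 10 passed, with 3 at an unadjusted p under 0.05 (background 0.00807% and 6.36%). In the lower run 0 of 10 passed, with 1 at an unadjusted p under 0.05 (background 0.597% and 7.07%). The genotype effect in the higher run minus that in the lower run passed for 0 of 10, with 2 at an unadjusted p under 0.05 (background 0.331% and 6.11%). In a model that also held the run 0 of 10 passed, with 2 at an unadjusted p under 0.05 (background 0.105% and 8.79%).

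**Figure D1:**
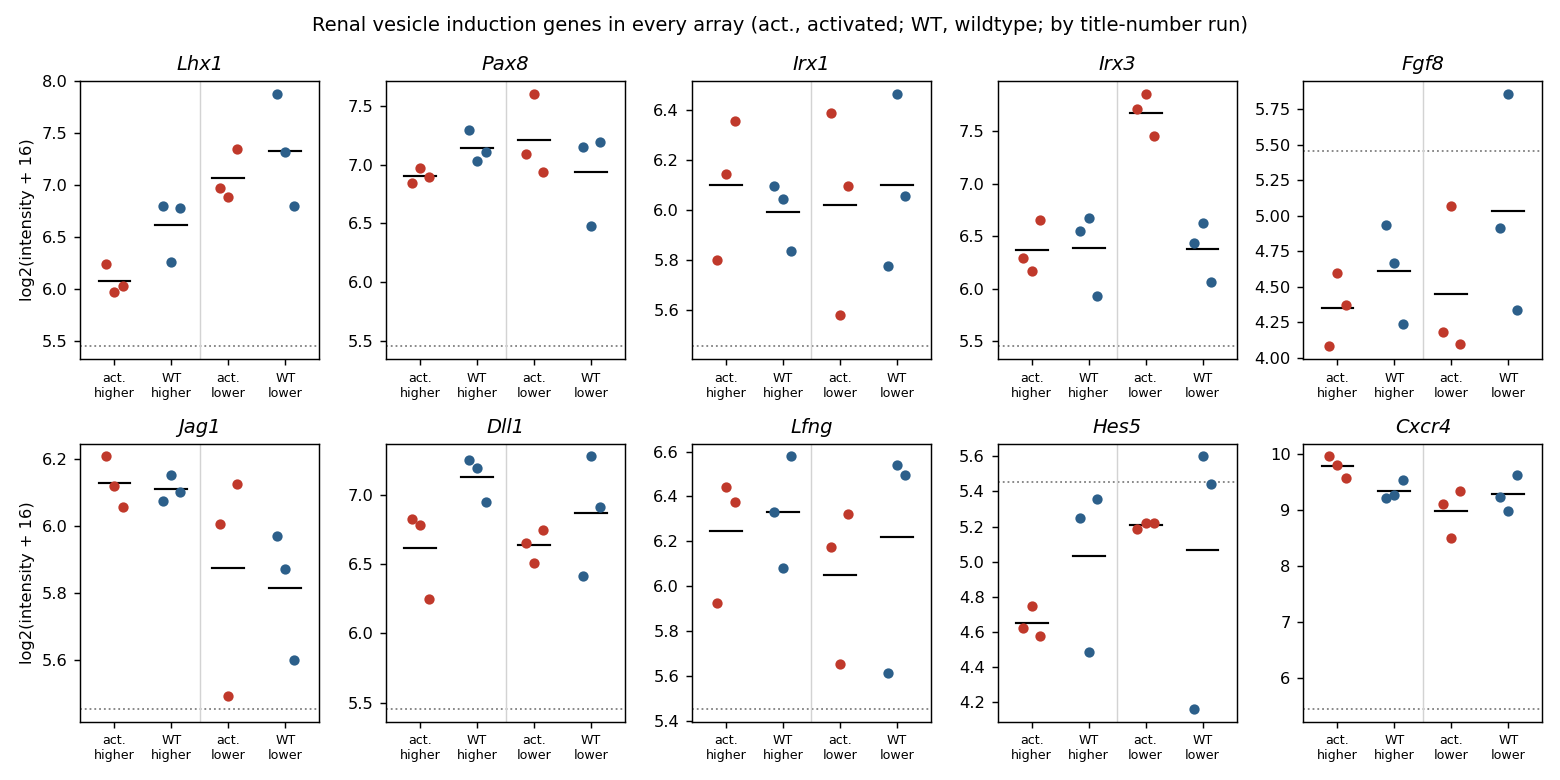
Each point is 1 array and each bar the mean of 3, as log2(intensity + 16), with activated (act., red) left of wildtype (WT, blue) in the higher and then the lower title-number run; the dotted line is the highest bacterial control signal, 5.45. Irx3 lies apart in the 3 activated arrays of the lower run, Lhx1 is lower in the higher run than in the lower run, and Fgf8 and Hes5 lie mostly under the dotted line.

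Irx3 had the largest difference of the members. It encodes a homeodomain transcription factor of the Iroquois family, which is known for the intermediate part of the nephron. Irx3 read 6.29, 6.17 and 6.66 in activated kidneys of the higher run, against 6.55, 6.67 and 5.93 in wildtype kidneys. Activated kidneys of the lower run read 7.71, 7.86 and 7.45, against 6.44, 6.63 and 6.06 in wildtype kidneys. The groups overlapped in the higher run, while in the lower run each activated array lay above each wildtype array; it was the only member without overlap there, where 12.5% of all genes had none (5.41% higher in activated kidneys). Over all 12 arrays 0 of 10 members were without overlap (background 0.500%).

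In deposited intensity, Irx3 read 186, 234 and 145 in activated kidneys of the lower run, against 67.8, 86.7 and 50.8 in wildtype kidneys. The difference was -0.01 in the higher run (SE 0.25, adjusted p = 0.996 by limma, 95% interval -0.59 to 0.57) and 1.30 in the lower run (SE 0.25, adjusted p = 0.0616, 95% interval 0.74 to 1.86), a fold of 2.46 that did not pass. With arrays centred on their medians the lower-run difference was 1.26 and passed (adjusted p = 0.041), and with the dimmest 40% of genes left out it was 1.30 and passed (adjusted p = 0.0256); over all alternatives and arrays left out the adjusted p ran from 0.0256 to 0.298. The difference between the runs was -1.31 (SE 0.35, adjusted p = 0.204). Over all 12 arrays Irx3 averaged 7.02 ± 0.74 in activated and 6.38 ± 0.31 in wildtype kidneys (SD, n = 6 arrays each), a difference of 0.64 (SE 0.29, adjusted p = 0.805 by limma).

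Irx1, of the same family, overlapped between genotypes in both runs. It ran from 5.58 to 6.39 in activated kidneys, with a median of 6.12, and from 5.77 to 6.47 in wildtype kidneys, with a median of 6.05. Its difference was 0.11 in the higher run (95% interval -0.39 to 0.61) and -0.08 in the lower run (95% interval -0.79 to 0.63). Of the family's other 4 genes, 0 passed over all arrays or in either run, with 1, 0 and 1 at an unadjusted p under 0.05 over all arrays, in the higher and in the lower run. In the RefSeq table Irx3 lies on chromosome 8 with Irx5 and Irx6, and Irx1 on chromosome 13 with Irx2 and Irx4.

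The 1 gene of the 4 was Irx5. Irx5 read 5.39, 5.34 and 5.71 in activated kidneys of the higher run, against 5.15, 5.40 and 4.87 in wildtype kidneys. Activated kidneys of the lower run read 6.60, 6.89 and 6.68, against 5.34, 4.98 and 5.61 in wildtype kidneys, again with no overlap. Its differences were 0.34 in the higher run (SE 0.23, adjusted p = 0.880) and 1.41 in the lower run (SE 0.28, adjusted p = 0.0693), neither past limma's test, and wildtype values lay near the background of 5.45. Irx6, which lies on the same chromosome, differed by 0.31 in the higher run and 0.27 in the lower run. Irx2 and Irx4 differed by -0.06 and -0.05 in the higher run and by -0.05 and 0.03 in the lower run. Irx6, Irx2 and Irx4 had means over all arrays of 5.07, 5.30 and 4.19, under the background. Their small differences therefore do not show that these genes were unchanged.

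The genes with the pattern most like that of Irx3 over the 12 arrays, among 8553 other genes above the background, were Notum and Frzb. Notum encodes an enzyme that inactivates Wnt ligands, and Frzb a secreted protein that binds them. Pearson's r with Irx3 was 0.96 for Notum (0.88 within the higher run, 0.97 within the lower run) and 0.94 for Frzb (0.63 and 0.98). These are descriptions over 12 arrays that share genotype and run. In the higher run Notum differed by 0.13 (SE 0.23) and Frzb by -0.12 (SE 0.23). Both rose in the lower run, Notum by 2.89 (SE 0.26, adjusted p = 0.00132) and Frzb by 1.70 (SE 0.22, adjusted p = 0.00769), and both differed between the runs (adjusted p = 0.00438 and 0.0242).

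**Figure D2:**
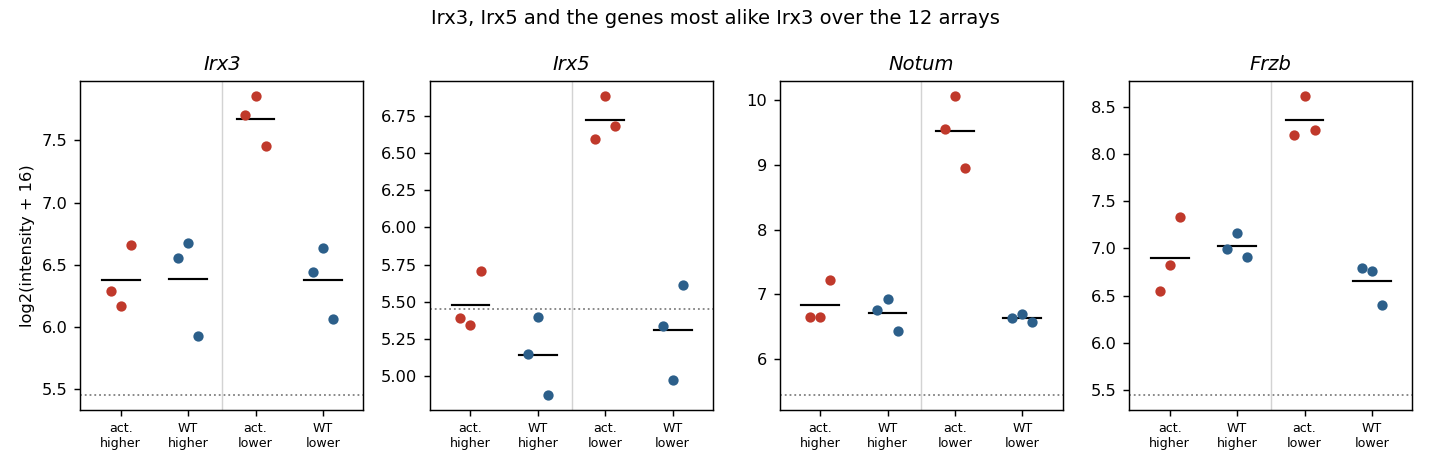
Each point is 1 array and each bar the mean of 3, as log2(intensity + 16), with activated (act., red) left of wildtype (WT, blue) in the higher and then the lower run; the dotted line is the highest bacterial control signal, 5.45. In all 4 genes the 3 activated arrays of the lower run lie above the other 9 arrays; Notum and Frzb were chosen for likeness to Irx3.

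Cell markers moved in the same lower-run arrays. Of 14 measured nephron progenitor genes 5 fell there, Six2 by 2.01 (adjusted p = 0.00155) among them, and their summed intensity was 1830 to 2143 in activated kidneys, against 4981 to 5427 in wildtype kidneys. In the higher run 0 passed, and 0 were at an unadjusted p under 0.05. Only 1 of the 14 had a positive difference there (median -0.23), beside 49.7% of all genes. The sums were 3642 to 4703 in activated kidneys, against 4610 to 5237 in wildtype kidneys. Of 13 stroma genes 4 fell in the lower run (summed 14850 to 17311 in activated kidneys, against 18934 to 20300 in wildtype kidneys). Stroma sums lay the other way in the higher run, 19537 to 20966 in activated kidneys, against 18098 to 18990 in wildtype kidneys, where 0 passed, with 3 up and 0 down at an unadjusted p under 0.05. The stroma list did not move as a whole there: 7 of the 13 had a positive difference, with a median of 0.01. Of 12 genes of neurons, glia and neural crest, tissues where Irx3 is also known, 2 fell in the lower run, Dcx and Stmn2. The 12 summed to 1167 to 1390 in activated kidneys, against 1756 to 1924 in wildtype kidneys. The list did not move as a whole: in that run 6 of the 12 had a positive difference, with a median of 0.02. At an unadjusted p under 0.05, 2 were up and 3 down there. Of 10 genes of the ureteric bud 1 fell there, Calb1 (the 10 summed to 2712 to 4149 in activated kidneys, against 4487 to 5264 in wildtype kidneys). That sum includes Calb1 itself, which averaged 10.64 in activated and 11.66 in wildtype kidneys of the lower run. The median difference of the 10 in the lower run was -0.11, with 3 positive. Calb1 was not confined to that run: it was 1 of the 3 genes called over all 12 arrays (-0.75, adjusted p = 0.0416), passed with run in the model (adjusted p = 0.0148), and in the higher run differed by -0.49 without overlap (adjusted p = 0.548). Of 13 endothelial genes 0 passed in the lower run, with 2 at an unadjusted p under 0.05. The part of cell makeup in the values of Irx3 was not tested, and in whole kidneys fewer cells of a type and less RNA per cell cannot be told apart.

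Lhx1 encodes a LIM homeodomain transcription factor required for the renal vesicle to grow and pattern. Lhx1 read 6.24, 5.98 and 6.03 in activated kidneys of the higher run, against 6.80, 6.26 and 6.78 in wildtype kidneys. Its lower-run values were 6.97, 6.89 and 7.35 in activated kidneys, against 7.88, 7.32 and 6.80 in wildtype kidneys. Activated arrays lay below wildtype arrays without overlap in the higher run, and the groups overlapped in the lower run. The differences were -0.53 (SE 0.22, adjusted p = 0.776, 95% interval -1.03 to -0.03) in the higher run and -0.26 (SE 0.30, adjusted p = 0.955, 95% interval -0.93 to 0.41) in the lower run. Over all 12 arrays Lhx1 averaged 6.58 ± 0.57 in activated and 6.97 ± 0.56 in wildtype kidneys (SD, n = 6 each), and the difference of -0.40 (SE 0.29, adjusted p = 0.910 by limma) was within that spread.

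Between the runs, at equal genotype, Lhx1 was lower in the higher run by a difference of -0.85, higher minus lower (SE 0.19, adjusted p = 0.00788 by limma). It was the 1 member of 10 called, where 11.1% of all genes were called (4.19% in that direction), a share near the background. At an unadjusted p under 0.05 there were 3 of 10 (background 24.0%), and 0 of 10 had no overlap between the runs (background 6.20%). The other Lhx1 probe set gave -0.40 and did not pass (adjusted p = 0.392), and neither did the mean of both (-0.63, adjusted p = 0.0524). Without wildtype 3, Irx3 (-0.79, adjusted p = 0.0478) and Cxcr4 (0.55, adjusted p = 0.0451) passed as well, which gave 3 members. With all arrays, however, these 2 moved between the runs mainly in activated kidneys. Irx3 averaged 6.38 in wildtype kidneys of each run, and in activated kidneys 6.37 in the higher and 7.67 in the lower run. Cxcr4 averaged 9.34 in the higher and 9.28 in the lower run in wildtype kidneys, and 9.78 and 8.98 in activated kidneys. Cell markers also differed between the runs. By limma's adjusted p, of 9 macrophage and blood genes 4 were higher and 2 lower in the higher run. Of 6 podocyte genes 4 were higher and 1 lower. Of 14 nephron progenitor genes 4 were higher and 0 lower, and of 9 proximal tubule genes 3 were higher and 0 lower. Of 15 other genes of the renal vesicle 1 was higher and 3 were lower. These tests average over both genotypes. Summed progenitor intensity in wildtype kidneys overlapped between the runs, at 4610 to 5237 in the higher and 4981 to 5427 in the lower run. In activated kidneys it was 3642 to 4703 and 1830 to 2143. The part of the cells of these lists in the values of Lhx1 was not tested, and the labels do not say in what the runs differ. The genes most like Lhx1 over the 12 arrays were Reck, with r = 0.90, and Dusp9, with r = 0.89.

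Pax8 encodes a paired-box transcription factor of the early nephron and of the ureteric bud. Pax8 read 6.84, 6.97 and 6.90 in activated kidneys of the higher run, against 7.29, 7.03 and 7.11 in wildtype kidneys, with no overlap. Its lower-run values were 7.09, 7.61 and 6.94 in activated kidneys, against 7.15, 6.48 and 7.20 in wildtype kidneys, and activated 2 and wildtype 2 lay at opposite ends. The differences were -0.24 (SE 0.17, adjusted p = 0.880) and 0.27 (SE 0.29, adjusted p = 0.952). Over all arrays the difference was 0.02 (adjusted p = 0.999), and it was -0.09 without activated 2 and -0.10 without wildtype 2. The gene most like Pax8 was Ecpas, with r = 0.87 over the 12 arrays.

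Fgf8, the fibroblast growth factor that the forming vesicle secretes and that its cells need to survive, was under the background in 11 of 12 arrays. It ran from 4.08 to 5.07 in activated kidneys, with a median of 4.28, and from 4.24 to 5.86 in wildtype kidneys, with a median of 4.79, the highest in wildtype 2. The difference of -0.42 over all arrays (SE 0.26, adjusted p = 0.893) thus compares values not well above background, and no fold is given. Of 20 other measured genes of the FGF pathway 0 passed over all arrays (1 down and 0 up at an unadjusted p under 0.05), and 0 in either run (0 in the higher run and 2 down in the lower run at that level). Their median difference was -0.09 over all arrays. The receptor genes Fgfr4 and Fgfr3 differed by -0.46 (adjusted p = 0.535) and 0.35 (adjusted p = 0.866), and the ligand gene Fgf1 by 0.17 in the higher run and -1.11 in the lower run (adjusted p = 0.949 and 0.382).

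**Figure D3:**
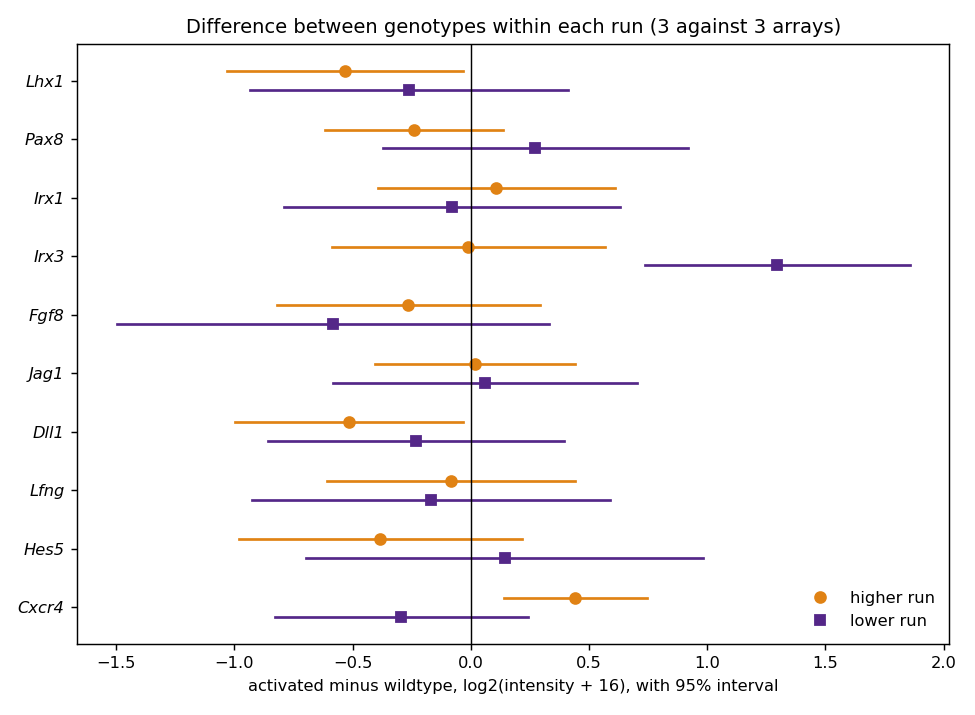
Points are activated minus wildtype differences in log2(intensity + 16) within the higher run (circles) and the lower run (squares), each 3 against 3 arrays, with 95% intervals from limma, not adjusted over genes. The lower-run interval of Irx3, 0.74 to 1.86, lies apart from 0, as do the higher-run intervals of Lhx1, Dll1 and Cxcr4, but none of the 10 members passed after adjustment over all genes.

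The Notch ligand genes are Dll1 and Jag1. Dll1 read 6.83, 6.78 and 6.25 in activated kidneys of the higher run, against 7.25, 7.19 and 6.95 in wildtype kidneys, with no overlap. In the lower run it read 6.65, 6.51 and 6.75 in activated kidneys, against 6.41, 7.28 and 6.92 in wildtype kidneys, with overlap. The differences were -0.51 (SE 0.21, adjusted p = 0.776) and -0.23 (SE 0.28, adjusted p = 0.956). Over all 12 arrays Dll1 differed by -0.37 (SE 0.17, adjusted p = 0.812 by limma), and it stayed negative, from -0.49 to -0.30, with each array left out in turn.

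Jag1 ran from 5.49 to 6.21 in activated kidneys, with a median of 6.09, and from 5.60 to 6.15 in wildtype kidneys, with a median of 6.02. The lowest value, 5.49, was that of activated 2. The difference over all arrays was 0.04 (95% interval -0.32 to 0.40). Its other probe set gave -0.04, with 2 of 12 arrays above the background.

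Lfng encodes a glycosyltransferase that modifies Notch receptors, and Hes5 a repressor that Notch induces. Lfng ran from 5.65 to 6.44 in activated kidneys and from 5.61 to 6.58 in wildtype kidneys, a difference of -0.13 (95% interval -0.56 to 0.31). Its other probe set lay under the background in all 12 arrays. Hes5 ran from 4.57 to 5.22 in activated kidneys and from 4.16 to 5.60 in wildtype kidneys, with wildtype 2 the 1 array of 12 above the background. Its other probe set was above it in 2 arrays, activated 1 at 5.77 and wildtype 2 at 5.61. The difference of Hes5 was -0.12 (95% interval -0.65 to 0.41) and that of the other probe set -0.23. Both genes were named above for the Rbpj letters in their promoters, and neither differed past the spread between arrays.

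Of 31 other measured Notch pathway genes, 0 passed over all arrays, with 1 up and 0 down at an unadjusted p under 0.05. In the higher run 0 passed (0 up and 1 down at that level), and in the lower run 0 passed (2 up and 2 down). Their median difference was 0.04 in the higher run and -0.07 in the lower run. The receptor gene Notch2 differed by -0.12 over all arrays (adjusted p = 0.942). Among Notch target genes, Hey2 differed by 0.71 (SE 0.26, adjusted p = 0.659), Hey1 by 0.37 (SE 0.27, adjusted p = 0.910) and Nrarp by 0.31 (adjusted p = 0.873). Hey1 differed by 0.04 in the higher run and 0.70 in the lower run (adjusted p = 0.985 and 0.115), and like Lhx1 it was lower in the higher run at equal genotype, with a difference of -0.90 (adjusted p = 0.000538).

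Cxcr4 encodes a chemokine receptor known from the nephron-forming mesenchyme and from vessels. Cxcr4 read 9.95, 9.80 and 9.58 in activated kidneys of the higher run, against 9.22, 9.26 and 9.53 in wildtype kidneys, with no overlap. Its lower-run values were 9.11, 8.50 and 9.34 in activated kidneys, against 9.22, 8.98 and 9.63 in wildtype kidneys, with overlap. The differences were 0.44 (SE 0.13, adjusted p = 0.647, 95% interval 0.14 to 0.74) and -0.29 (SE 0.24, adjusted p = 0.920, 95% interval -0.83 to 0.24), and the difference between the runs was 0.74 (SE 0.29, adjusted p = 0.684). So 4 of 10 members, Lhx1, Pax8, Dll1 and Cxcr4, had no overlap in the higher run, 3 lower and 1 higher in activated kidneys, where 11.3% of all genes had none (5.73% lower and 5.60% higher). None of the 4 passed limma's test there.

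Markers of later nephron segments lay lower in those same higher-run arrays. Of 9 proximal tubule genes 0 passed there, 5 were down and 0 up at an unadjusted p under 0.05, and their summed intensity was 243 to 377 in activated kidneys, against 452 to 583 in wildtype kidneys. Of 8 genes of the distal nephron and loop 0 passed, 1 was down and 0 up at that level, and the sums were 151 to 273 in activated kidneys, against 299 to 318 in wildtype kidneys. Only 5 of the 9 proximal tubule genes and 3 of these 8 had means above the background, so part of both sums is signal under it. Of 6 podocyte genes 0 passed and 0 were at that level. The part of these cells in the values of Lhx1, Pax8 and Dll1 was not tested.

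Endothelial markers lay in the same direction as Cxcr4 in the higher run. There all 13 had a positive difference, 0 passed, 5 had an unadjusted p under 0.05, and their summed intensity was 1449 to 1501 in activated kidneys, against 907 to 1113 in wildtype kidneys. In the lower run 9 of 13 were positive, and the sums were 1460 to 2077 in activated kidneys, against 869 to 1705 in wildtype kidneys. The part of endothelial RNA in the values of Cxcr4 was not tested. Cxcl12, the gene of the ligand of Cxcr4, differed by 0.49 in the higher run and 0.21 in the lower run (adjusted p = 0.774 and 0.895), and Ackr3, the gene of a scavenging receptor of Cxcl12, by 0.22 and -0.24 (adjusted p = 0.776 and 0.765). The gene most like Cxcr4 over the 12 arrays was Ttc33, with r = 0.94.

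Other genes of the renal vesicle, 15 measured of 20 listed, gave 2 that rose in the lower run, Dkk1 and Bmp2, and 0 that changed in the higher run (7 up and 1 down, and 0, at an unadjusted p under 0.05). Dkk1, a secreted Wnt inhibitor gene, rose in the lower run by 2.80 (SE 0.19, adjusted p = 0.000354), and the difference in the higher run was 0.42 (adjusted p = 0.851). Bmp2, a ligand gene of the vesicle, rose by 1.87 (SE 0.32, adjusted p = 0.0327) and differed by 0.36 in the higher run (adjusted p = 0.860). Dkk1 and Bmp2 thus passed in a run where no member did.

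Wnt4, the Wnt ligand gene of the vesicle, did not pass in either run. Wnt4 read 8.75, 8.55 and 8.80 in activated kidneys of the higher run, against 8.86, 8.92 and 9.03 in wildtype kidneys. In the lower run it read 9.89, 9.96 and 9.05 in activated kidneys, against 8.57, 8.25 and 8.83 in wildtype kidneys. It was thus lower in activated kidneys without overlap in the higher run and higher without overlap in the lower run. The differences were -0.24 (adjusted p = 0.836) and 1.08 (SE 0.25, adjusted p = 0.133), and the interaction of genotype with run gave -1.32 (adjusted p = 0.108). Tmem100 had a difference of -0.41 in the higher run and 1.25 in the lower run (adjusted p = 0.861 and 0.130). The cadherin gene Cdh6 differed by 0.49 and 0.66 (adjusted p = 0.853 and 0.617).

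**Figure D4:**
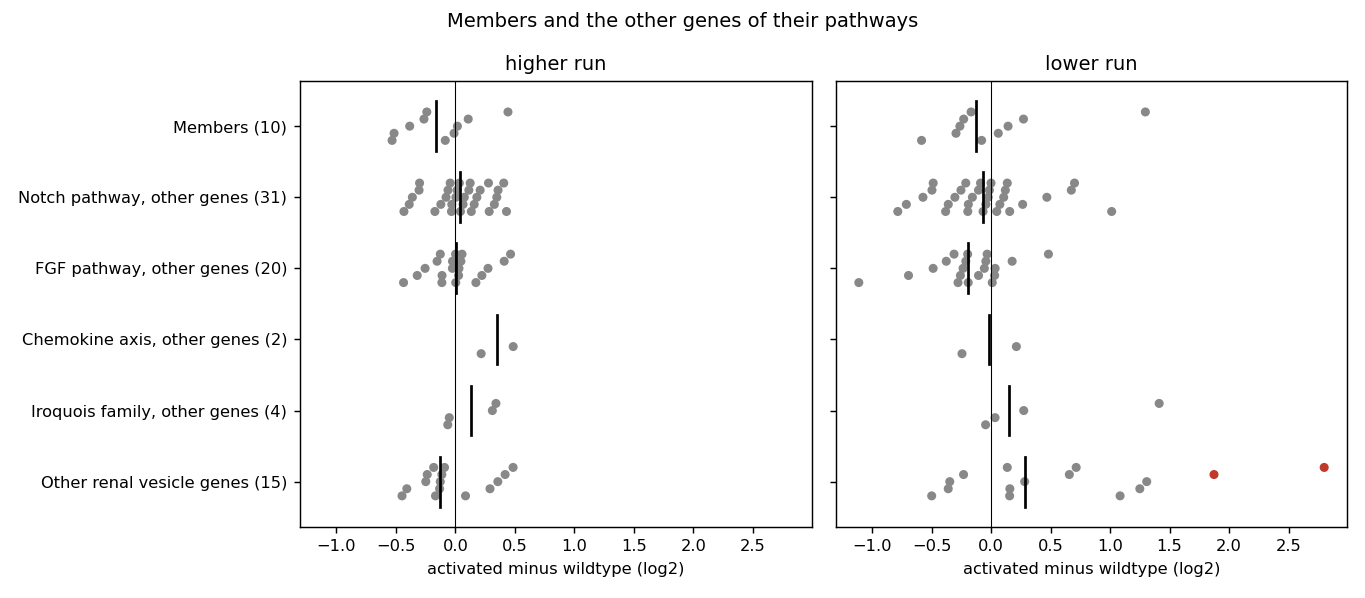
Each point is a gene's activated minus wildtype difference in log2(intensity + 16), for the 10 members and the measured genes of 5 related lists, in the higher run (left) and the lower run (right); black bars are medians and red points passed limma's adjusted p of 0.05. Only Dkk1 and Bmp2, in the lower run, are red; Irx3 is the member at 1.30 and Irx5 the Iroquois gene at 1.41.

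Pearson's r between members, over 12 arrays that share genotype and run, ran from -0.72 for Irx3 with Cxcr4 to 0.64 for Irx1 with Lfng. Lhx1 and Pax8 were at 0.06. The genes most like the remaining members were Rexo2 for Irx1 (r = 0.85), Luzp1 for Jag1 (0.98), Tradd for Dll1 (0.83) and Nectin3 for Lfng (0.83). For Jag1 and Luzp1 the lowest of the activated arrays was activated 2 in both, at 5.49 and 7.68, and r was 0.66 within the higher run.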

How the data were processed

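Per the labels' protocols, Trizol was used to prepare total RNA and an Affymetrix in vitro transcription kit to label it. The deposited intensity values are linear. Their mean after trimming 2% of the probe sets from each end was 250.1 on each of the 12 arrays, a common scale already in the authors' values; no label names the software that made them. The number of arrays limits the precision.

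Values were taken as log2(intensity + 16) and quantile-normalised over all probe sets, since array medians differed by 0.29. Of the probe sets 20380 had 1 gene symbol; 691 with several, 1555 with none listed and 64 controls were left out. A gene was represented by its probe set with the highest mean. The tests were those of limma 3.58.1 under R 4.3.3 (trended variance, Benjamini-Hochberg adjustment over 12393 genes, threshold 0.05), for genotype over all arrays, with run added, within each run and as an interaction with run; the run coefficient was tested in the model with genotype. Bacterial control signal served as background.

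The members, the lists and the tests were chosen with earlier results of these data known. The text names the members, Six2, Wnt4, Wnt9b, Cxcl12, Notch2 and Ctnnb1 (Pax2 is not analysed here), genes among the 3 with the smallest p of each list over all arrays or for the difference between runs, and genes among the 2 most correlated with each member; other genes named were chosen after their values were seen. Alternatives were the values as deposited, median centring, a pseudocount of 1, the genes without the dimmest 40%, probe sets averaged, each probe set alone, no variance trend, the 5' to 3' control ratio as a covariate, and each array left out. The calculations were tested on simulated data. Plots were drawn with matplotlib 3.10.9.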

Additional observations from a re-analysis of the deposited data

Results flagged for a closer look

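Several genes set beside the members had a genotype difference that differed between the runs by limma's interaction test, given as higher minus lower run on the log2 scale. The values were -2.38 for Dkk1 (adjusted p = 0.00214), -2.75 for Notum (adjusted p = 0.00438) and -1.83 for Frzb (adjusted p = 0.0242). The neuronal gene Dcx had 3.21 (adjusted p = 0.000337). Of the progenitor genes, Capn6 had 1.84 (adjusted p = 0.00194) and Six2 had 1.72 (adjusted p = 0.0253). In 3 further genes named here, the activated arrays lay without overlap on opposite sides of the wildtype arrays in the 2 runs. There were 5 such genes among the 95 that the naming rule gives. The interaction test did not pass for Wnt4 with -1.32 (adjusted p = 0.108), Dll3 with 1.13 (adjusted p = 0.389) and Ackr3 with 0.46 (adjusted p = 0.334). Dll3 read 5.20, 5.45 and 4.59 in activated kidneys of the lower run, not above the background. The naming rule takes genes partly for a small p of the difference between runs, so these counts say nothing about all genes.

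By Dixon's criterion, which chance meets in about 1 in 20 groups, a single array stood far from the other 5 of its genotype in 10 cases among the genes named here. Among all 95 genes, each with an activated and a wildtype group, there were 19 cases. Each group holds arrays of both runs. Among the members, Pax8 read 7.61 in activated 2 (nearest array 7.09) and 6.48 in wildtype 2 (nearest 7.03), and Jag1 read 5.49 in activated 2 (nearest 6.01). Activated 2 was the array in 9 of the 19 cases, and among the genes named here it also stood apart for Luzp1, at 7.68 (nearest 8.17), and Nectin3, at 8.86 (nearest 9.30). The others were Nectin3 in wildtype 1 at 8.91 (nearest 9.56), Ecpas in wildtype 2 at 5.68 (nearest 6.36), Sox17 in wildtype 3 at 8.89 (nearest 7.88), Meox1 in wildtype 5 at 6.57 (nearest 7.23) and Cdh6 in activated 5 at 5.43 (nearest 6.06). Luzp1 and Ecpas were chosen for likeness to Jag1 and Pax8 over these arrays, so they may only repeat the arrays that stood apart in those members. Nectin3 was likewise chosen for likeness to Lfng, which was lowest of its genotype in the same arrays, activated 2 (5.65) and wildtype 1 (5.61).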

How the results depend on the processing

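Of 1042 member differences recomputed under other settings, 959 kept their direction and side of the threshold, 77 changed sign, 2 lost and 4 gained a call, and 0 of the sign changes were of a called difference; the causes were not tested. No paired analysis was possible because the labels give the genotypes no shared replicate numbers. The number of members called was 1 in the lower run with median centring and with the dimmest 40% left out (Irx3), and 0 between the runs with the mean of probe sets. Genes called became, with median centring, 8 with run as a term, 2 in the higher run and 18 for the difference between runs. They became, with the mean of probe sets, 1 over all arrays, 8 with run as a term and 0 in the higher run. Without a variance trend they became 1 over all arrays, 7 with run as a term, 39 in the lower run, 0 in the higher run and 24 for the difference between runs. With the 5' to 3' ratio as a covariate they became 52 with run as a term and 89 for the difference between runs. With each array left out, genes called ran from 0 to 4 over all arrays (0 without activated 1, activated 3, wildtype 1 or wildtype 3), 4 to 20 with run as a term, 30 to 87 in the lower run, 0 to 1 in the higher run and 16 to 47 for the difference between runs, and members called at equal genotype between the runs from 1 to 3.

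No called difference changed sign, but not all sign changes were small. The difference between runs of Jag1 went from -0.04 to 0.56 with the other probe set. Pax8, over all arrays and with run as a term, was -0.00480 as deposited, -0.00572 with median centring, and -0.0196 and -0.0182 with the covariate. The difference between runs of Jag1 was 0.00916 with median centring. With the mean of probe sets, Jag1 was -2.302e-05 over all arrays and with run as a term, -0.13 in the lower run and 0.26 for the difference between runs, Hes5 -0.040 in the lower run, and Lhx1 0.022 and Lfng -0.0848 for the difference between runs. With the other probe set, Jag1 was -0.039, -0.32 and 0.56 in those comparisons, Lfng 0.020, 0.15 and -0.25 and, at equal genotype, higher minus lower run, -0.040, Hes5 -0.22 in the lower run and Lhx1 0.31 for the difference between runs.

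With each array left out, over all arrays Pax8 ran from -0.097 to 0.066, Irx1 from -0.051 to 0.11, Jag1 from -0.033 to 0.14 and Cxcr4 from -0.041 to 0.25. With run as a term they ran from -0.12 to 0.077, -0.057 to 0.12, -0.019 to 0.12 and -0.0062 to 0.22. In the higher run Irx1 ran from -0.019 to 0.26, Irx3 from -0.24 to 0.13, Jag1 from -0.023 to 0.054 and Lfng from -0.21 to 0.078. In the lower run Lhx1 ran from -0.53 to 0.012, Irx1 from -0.26 to 0.14, Jag1 from -0.065 to 0.25, Lfng from -0.47 to 0.031 and Hes5 from -0.31 to 0.41. For the difference between runs Irx1 ran from -0.034 to 0.37, Fgf8 from -0.090 to 0.67, Jag1 from -0.23 to 0.083 and Lfng from -0.12 to 0.39, and at equal genotype, higher minus lower run, Pax8 ran from -0.18 to 0.065 and Irx1 from -0.12 to 0.079. Signal limits Fgf8 and the Hes5 probe set used, which lay under the background in 11 of 12 arrays each.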
